A study of Solanum lycopersicum with 8 samples.

Results

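The *SEPALLATA* (*SEP*) and *AGL6* genes encode closely related MADS-box transcription factors. SEP proteins join other MADS-box proteins into the complexes that specify floral organs, and they also act in floral meristem identity and in the termination of meristem growth. In tomato, *J2* and *EJ2* restrain inflorescence branching redundantly. The genes described here are the remaining members of both groups, 5 of the 34109 genes in the deposited table. They are *LIN* (Solyc04g005320.3), *RIN* (Solyc05g012020.4), *TM5* (Solyc05g015750.3), *TM29* (Solyc02g089200.4) and *AGL6* (Solyc01g093960.3). They were selected by ID, with no threshold on any value, as relatives of *EJ2* and *J2* among which a lower level in *plt3* *plt7* was to be looked for.

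Inflorescence meristems were dissected from tomato plants at an age of 8 weeks, and their RNA was sequenced in 4 libraries for each of 2 double mutants. *ej2* *j2* is mutated in *EJ2* and *J2*, and *plt3* *plt7* in the *PLETHORA* genes *PLT3* and *PLT7*; neither label names a mutation in the other pair. The *ej2* *j2* plants came from existing stocks and edited lines were made with CRISPR–Cas9 in the cultivar M82, but which alleles these libraries carry was not stated, and wild-type meristems were not analysed here, so each level is relative to the other mutant. In these bulk samples, fewer cells that express a gene and less RNA per cell cannot be told apart.

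Values are TPM, a measure of transcript abundance scaled by transcript length and by the library total, so that levels of different genes can be compared. Read numbers cannot be had from TPM, the depth is therefore unknown, and a value of 0 is given as listed at 0. The number of genes above 0 ranged from 21397 to 22792 over the *ej2* *j2* libraries and from 21479 to 22295 over those of *plt3* *plt7*. Differences are in log2(TPM + 1), *plt3* *plt7* minus *ej2* *j2*, a scale that understates changes of low genes. They come from limma over the 19544 genes that averaged 1 TPM or more, at an adjusted p (Benjamini-Hochberg) under 0.05. Because the genes were put forward with earlier results of this comparison known, their p-values place them in the fit over all genes and are not independent support. The labels give 4 plants without saying whether each library is 1 plant, so the p-values concern libraries and not plants. The spread behind them is taken mostly from genes of similar level, and only in small part from each gene's own libraries.

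*TM29*, *TM5* and *AGL6* were lower in the *plt3* *plt7* libraries than in those of *ej2* *j2*, and *LIN* and *RIN* did not pass the test. On the log2(TPM + 1) scale *RIN* stood too low in *ej2* *j2* for a fall to pass. All 5 genes were tested, and 3 were lower, none was higher and 2 were not called, against 0.962% of all tested genes that were lower and 0.875% that were higher (1.84% in either direction). The libraries of the same 3 genes did not overlap between the genotypes, as was the case for 3.00% of all tested genes in this direction, 3.87% in the other and 6.87% in either. Nothing is read from these shares, since the genes were put forward from this comparison. The median log2 difference of the 5 genes was -3.00, and that of all tested genes was 0.05. *TM29*, *TM5* and *AGL6* had means of at least 1 TPM only in *ej2* *j2*, so they entered the test through the genotype in which they were high.

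**Figure D1:**
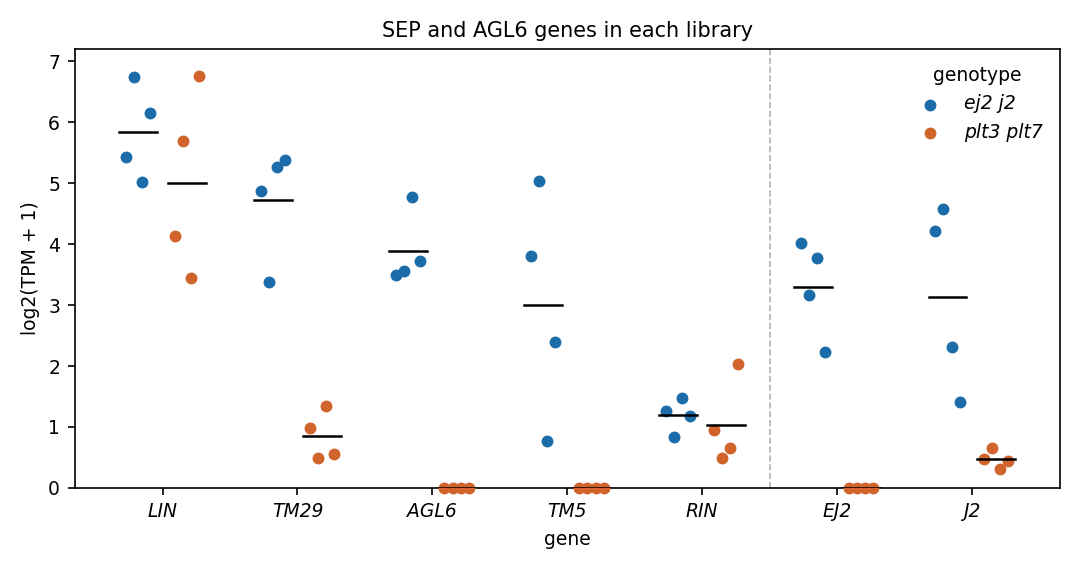
Level of each *SEP* and *AGL6* gene as log2(TPM + 1), with 1 point per library, 4 per genotype, and a bar at the mean; *EJ2* and *J2*, the mutated pair of *ej2* *j2*, stand to the right of the dashed line. The *plt3* *plt7* points of *TM29*, *AGL6* and *TM5* lie below every *ej2* *j2* point, whereas those of *LIN* and *RIN* overlap them.

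*AGL6*, a sister group of the *SEP* genes with overlapping roles in floral organ and meristem development, had a difference close to that of *TM29*, and which of them was lower changed with the scaling. *AGL6* was at 10.2, 10.8, 26.2 and 12.3 TPM in *ej2* *j2* replicates 1 to 4 (mean 14.9 ± 7.60, SD, n = 4) and was listed at 0 in all 4 *plt3* *plt7* libraries. *ej2* *j2* replicates 1, 2 and 4 thus lay close together, and replicate 3 stood above them. The log2 difference was -3.89 (standard error 0.70, 95% interval -5.26 to -2.52, adjusted p = 8.97e-05, limma), the 28th lowest of the 19544 genes. Of the 12836 genes with an *ej2* *j2* mean of at least 10 TPM, 5 were at 0 throughout *plt3* *plt7* (0.0390%), and *AGL6* and *TM5* are among these 5. In the opposite direction, 1 of 12785 genes with a *plt3* *plt7* mean of at least 10 TPM (0.00782%) was at 0 throughout *ej2* *j2*. Nothing is read from these shares either, since both genes were put forward from this comparison and are high in *ej2* *j2*, whose mean sets the group. *TM5* reached that mean through *ej2* *j2* replicates 1 and 2, at 13.0 and 31.8 TPM, against 0.701 and 4.25 TPM in replicates 3 and 4.

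*TM29*, listed in RefSeq with the synonym LeSEP1, is a *SEP* gene of flower and fruit development. It was at 28.2, 9.43, 37.4 and 40.8 TPM in *ej2* *j2* replicates 1 to 4 and at 0.986, 0.412, 1.54 and 0.462 TPM in *plt3* *plt7* replicates 1 to 4. The lowest *ej2* *j2* library, replicate 2, still lay above the highest *plt3* *plt7* library. The means were 29.0 ± 14.1 and 0.849 ± 0.526 TPM (SD, n = 4 each), 34.1 times lower in *plt3* *plt7*. Unlike *AGL6* and *TM5*, *TM29* was above 0 in every library. Its log2 difference was -3.88 (standard error 0.80, 95% interval -5.46 to -2.30, adjusted p = 0.00101, limma), the 29th lowest.

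*TM5*, with the RefSeq synonym LeSEP3, belongs to the *SEP3* type, whose proteins hold floral MADS-box complexes together in *Arabidopsis*. It was at 13.0, 31.8, 0.701 and 4.25 TPM in *ej2* *j2* replicates 1 to 4 (mean 12.4 ± 13.9, SD, n = 4) and was listed at 0 in all 4 *plt3* *plt7* libraries. Replicates 1 and 2 were high and replicate 3 was close to 0, a range of 45.4 times, so the spread among *ej2* *j2* libraries was wide. The log2 difference was -3.00 (standard error 0.64, 95% interval -4.27 to -1.74, adjusted p = 0.00177, limma), and it was -2.32 without *ej2* *j2* replicate 2 (adjusted p = 0.0185, limma). These standard errors and p-values are set mostly by genes of similar level and do not measure the wide spread of *TM5* itself. Without a filter on low values, where its own spread weighed more, the standard error was 0.76 (adjusted p = 0.154, limma).

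*LIN*, found in RefSeq as *CMB1*, is a relative of *EJ2* and *J2* in the SEP4 subclade, and its name stands for long inflorescence. It was the highest of the 5 genes in both genotypes. It was at 42.3, 106.6, 31.3 and 70.5 TPM in *ej2* *j2* replicates 1 to 4 and at 16.5, 51.0, 9.91 and 108.02 TPM in *plt3* *plt7* replicates 1 to 4. The *plt3* *plt7* libraries ran 10.9-fold from replicate 3 to replicate 4, on both sides of the whole *ej2* *j2* range. The means were 62.7 ± 33.6 and 46.3 ± 44.9 TPM (SD, n = 4 each). The log2 difference was -0.83 (standard error 0.91, adjusted p = 0.771, limma), and its 95% interval of -2.61 to 0.95 spans 6.10-fold lower to 1.93-fold higher TPM + 1, so these libraries do not show that *LIN* was the same in both genotypes.

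*RIN*, which is best known as a regulator of fruit ripening, was near 1 TPM in both genotypes. It was at 1.40, 0.780, 1.78 and 1.27 TPM in *ej2* *j2* replicates 1 to 4 and at 0.927, 0.402, 0.578 and 3.11 TPM in *plt3* *plt7* replicates 1 to 4. The means were 1.31 ± 0.415 and 1.25 ± 1.26 TPM (SD, n = 4 each), and *plt3* *plt7* replicate 4 held the highest value while replicates 2 and 3 lay below the whole *ej2* *j2* range. The log2 difference was -0.16 (standard error 0.58, 95% interval -1.30 to 0.99, adjusted p = 0.953, limma). *RIN* averaged 1.19 in log2(TPM + 1) in *ej2* *j2*, so its fall could be at most 1.19. At this standard error such a fall would not pass, so the lack of a call does not show that *RIN* was kept. RefSeq also lists a transcript unit that spans *RIN* and the neighbouring *MADS-MC*, and the assignment of reads shared between them was not stated.

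**Figure D2:**
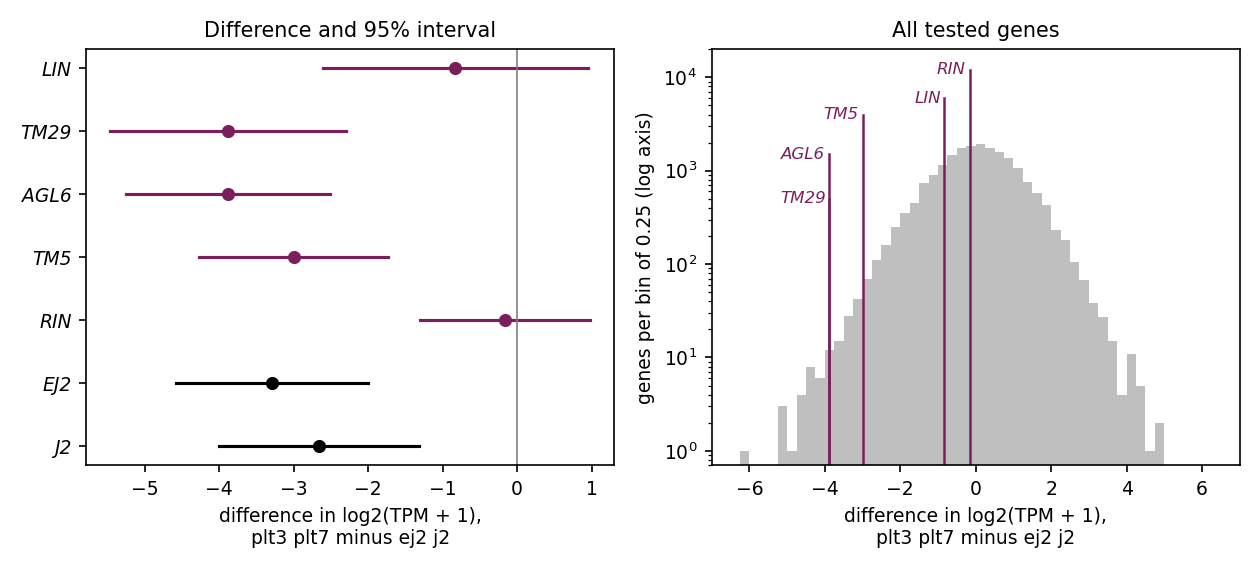
Left, difference in log2(TPM + 1), *plt3* *plt7* minus *ej2* *j2*, of each gene (points) with its 95% interval from limma (lines). Right, number of tested genes in bins of 0.25 of the same difference on a log axis, with lines at the 5 genes; *AGL6* (-3.89) and *TM29* (-3.88) lie in the lower tail, *TM5* at -3.00, and *LIN* and *RIN* within the bulk of the 19544 genes.

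The mutated genes kept transcripts in their own mutants, so RNA levels do not check the labels. *EJ2* was at 3.67 to 15.2 TPM and *J2* at 1.64 to 22.8 TPM in *ej2* *j2*, and *PLT3* and *PLT7* together were at 29.7 to 76.9 TPM in *plt3* *plt7* and 63.9 to 470.0 TPM in *ej2* *j2*, with neither called. *EJ2* was listed at 0 throughout *plt3* *plt7* and *J2* was at 0.236 to 0.565 TPM there, with log2 differences of -3.29 and -2.66 beside the -3.89, -3.88 and -3.00 of *AGL6*, *TM29* and *TM5*. *EJ2* (adjusted p = 6.09e-04) and *J2* (adjusted p = 0.0161, limma) passed the test and their SEP4 subclade relatives *LIN* and *RIN* did not. For *RIN* the test could not decide, because in log2(TPM + 1) even a fall to 0 would not pass at its standard error. The call of *J2* was lost without *ej2* *j2* replicate 1 or 2 or *plt3* *plt7* replicate 1 or 4 (adjusted p = 0.0679, 0.0505, 0.0643 and 0.0699, limma), and with only genes averaging 5 TPM or more (0.0818). Without a filter on low values neither *EJ2* (adjusted p = 0.0609) nor *J2* (0.169, limma) passed. Whether the genes of the subclade differed from each other in this was not tested. Relative to *LIN* of the same library, *TM29* was at -1.11 ± 1.57 in log2(TPM + 1) in *ej2* *j2* and at -4.17 ± 1.88 in *plt3* *plt7* (SD, n = 4 each). The *TM29* values relative to *LIN* ran from -3.37 to 0.25 in *ej2* *j2* and from -6.22 to -2.11 in *plt3* *plt7*, and so overlapped. For *AGL6* the same measure ran from -3.19 to -0.25 and from -6.77 to -3.45, and did not overlap. For *TM5* it ran from -4.25 to -1.63 and from -6.77 to -3.45, and overlapped. Both genes were listed at 0 throughout *plt3* *plt7*, so their values there are only the *LIN* level with its sign reversed. These contrasts with *LIN* were chosen after its values were seen, so no test is given of whether *LIN* responded differently.

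The summed level of the 5 genes was 95.2, 159, 97.4 and 129 TPM in *ej2* *j2* replicates 1 to 4 and 18.4, 51.8, 12.0 and 111.6 TPM in *plt3* *plt7* replicates 1 to 4, so the sums of both genotypes overlapped, with a mean 2.48 times lower in *plt3* *plt7*. *LIN* made up 32.1% to 66.9% of the sum in *ej2* *j2* and 82.4% to 98.4% in *plt3* *plt7*. Without *LIN*, which was set apart after its values were seen, the other 4 genes summed to between 52.8 and 66.1 TPM in *ej2* *j2* and to between 0.814 and 3.57 TPM in *plt3* *plt7*, a mean 27.4 times lower. With *EJ2* and *J2* added to the 5 genes, *LIN* still made up 80.8% to 97.4% of the sum in *plt3* *plt7*.

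**Figure D3:**
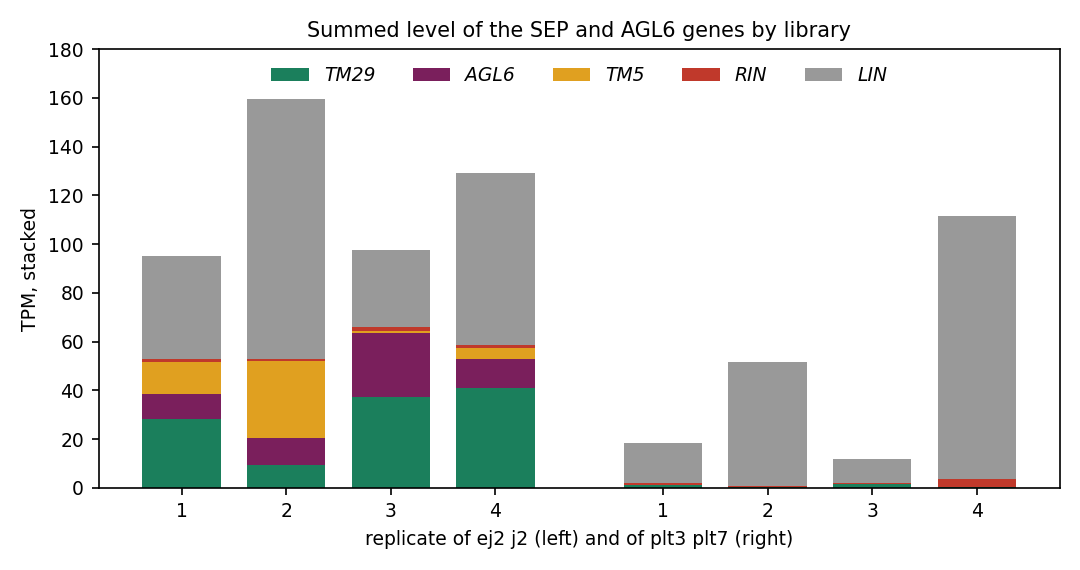
Summed TPM of the 5 genes in each library, stacked by gene, for the 4 *ej2* *j2* replicates (left) and the 4 *plt3* *plt7* replicates (right). In *ej2* *j2* the coloured part below *LIN* (grey) stays between 52.8 and 66.1 TPM; in *plt3* *plt7* nearly all of each bar is *LIN*.

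In *ej2* *j2* the mean levels fell in the order *LIN*, *TM29*, *AGL6*, *TM5*, *RIN*, but no neighbouring pair kept its order in all 4 libraries. *LIN* exceeded *TM29* in 3 of 4 libraries, by a mean of 1.11 ± 1.57 in log2(TPM + 1) (SD, n = 4), *TM29* exceeded *AGL6* in 3 of 4 (0.84 ± 0.84), *AGL6* exceeded *TM5* in 2 of 4 (0.89 ± 2.37) and *TM5* exceeded *RIN* in 3 of 4 (1.81 ± 2.08). Neighbours in this order therefore did not differ beyond their spread. In *plt3* *plt7* the order was *LIN*, *RIN*, *TM29*, with *TM5* and *AGL6* listed at 0. There *LIN* exceeded *RIN* in 4 of 4 libraries, by 3.98 ± 1.17, whereas *RIN* exceeded *TM29* in 1 of 4 (0.19 ± 0.92).

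The genes also varied in different ways among the *ej2* *j2* libraries. *TM5* was highest in replicate 2 and lowest in replicate 3, where *AGL6* was highest. *TM29* was lowest in replicate 2, at 9.43 TPM, where *LIN* reached its highest *ej2* *j2* level. In log2(TPM + 1), the standard deviation among *ej2* *j2* libraries was 1.84 for *TM5*, 0.92 for *TM29*, 0.77 for *LIN*, 0.59 for *AGL6* and 0.27 for *RIN*, against a median of 1.05 over all tested genes. In *plt3* *plt7* it was 1.504 for *LIN*, 0.70 for *RIN* and 0.40 for *TM29*, against a median of 1.02.

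The gene most like each of the 5 was sought among the 17 other tested MADS-box genes of the lists, by Pearson's r of log2(TPM + 1) over the 8 libraries. These libraries form 2 genotypes, which set much of each value, and r is given as a description only. *TM29* and *AGL6* were closest to each other (r = 0.96), *TM5* was closest to *J2* (r = 0.93) and *RIN* was closest to *LIN* (r = 0.42). *RIN* and *LIN* nevertheless ran in opposite order over the *ej2* *j2* libraries, with *RIN* lowest in replicate 2 and highest in replicate 3, where *LIN* was highest and lowest. After the genotype means were taken out, *TM29* and *AGL6* were no longer closest to each other. *TM29* was then closest to Solyc02g089210.4 (r = 0.74) and *AGL6* to Solyc05g056620.2 (r = 0.60), both of the AP1/FUL list. Solyc02g089210.4 is also the row directly after *TM29*, and how reads shared between related genes were treated was not stated. *TM5* was still closest to *J2* (r = 0.80), which like *TM5* was highest in *ej2* *j2* replicates 1 and 2 (17.6 and 22.8 TPM, against 3.95 and 1.64 TPM in replicates 3 and 4). *TM5* and *AGL6* were listed at 0 in all *plt3* *plt7* libraries, so their variation in these r values comes from the 4 *ej2* *j2* libraries only. *LIN* was closest both times to Solyc03g114830.3 of the AP1/FUL list (r = 0.58 and 0.55). Over all tested genes, the pair nearest to *AGL6* were Solyc09g005070.1 (r = 0.98), at 17.8 to 29.4 TPM in *ej2* *j2* and 0.210 to 0.707 TPM in *plt3* *plt7*, and Solyc01g081250.3 (r = 0.98), at 11.1 to 18.6 TPM in *ej2* *j2* and listed at 0 throughout *plt3* *plt7*. The tables used here give no names for these IDs.

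Among the rows next to the 5 genes in the table, none passed the test. Of the 20 rows within 2 of a gene, 14 were tested, with a median log2 difference of -0.48. The row after *TM29*, Solyc02g089210.4, was at 84.1 and 75.1 TPM on average in *ej2* *j2* and *plt3* *plt7* (log2 difference 0.31, adjusted p = 0.935, limma), whereas *TM29* itself was at 29.0 and 0.849 TPM. RefSeq likewise places a MADS-box gene, *MBP20*, after *TM29*. Beside *AGL6* the neighbouring rows were lower without passing the test. Solyc01g093970.4 averaged 52.3 and 10.2 TPM (log2 difference -2.35, adjusted p = 0.157, limma) and Solyc01g093965.2 averaged 12.8 and 4.70 TPM (-1.27, adjusted p = 0.534, limma), and in both the libraries of the genotypes did not overlap. The row before *RIN*, Solyc05g056620.2, averaged 209 and 482 TPM (1.87, adjusted p = 0.339, limma), far above the 1.31 and 1.25 TPM of *RIN*.

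**Figure D4:**
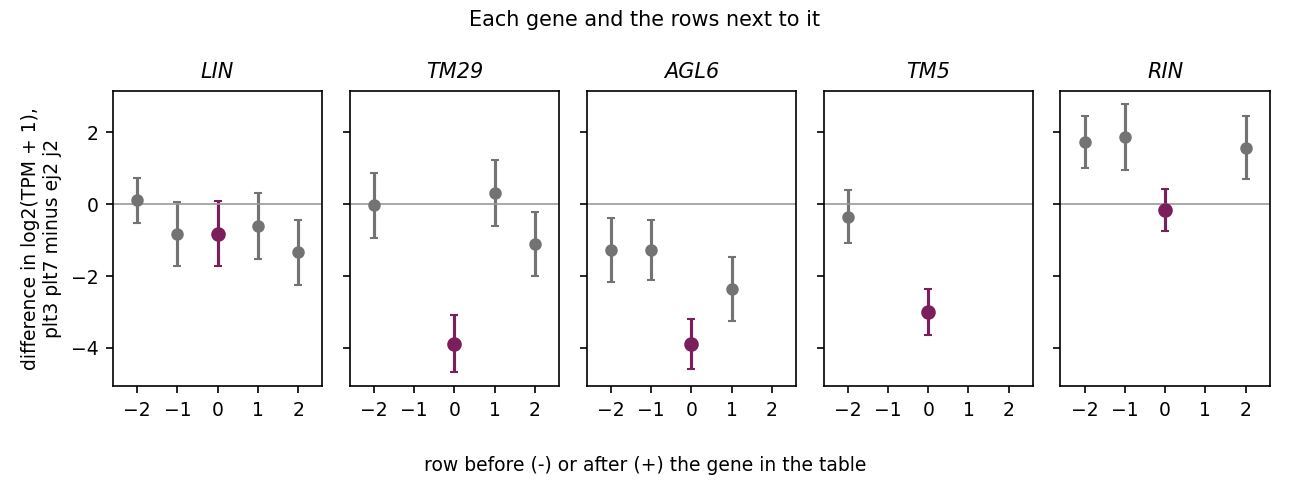
Difference in log2(TPM + 1), *plt3* *plt7* minus *ej2* *j2*, of each gene (purple, position 0) and of the tested rows up to 2 before and after it in the table (grey); bars are standard errors from limma, and rows that were not tested are left out. *TM29* (-3.88) lies below its 3 tested neighbours and *TM5* (-3.00) below its 1, and all 3 tested neighbours of *AGL6* lie below 0.

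In the other MADS-box classes no tested gene was called lower, and no class was tested as a set. Of 5 genes listed as AP1/FUL class, whose proteins act in floral transition and meristem identity, 5 were tested and none was called (median log2 difference 0.30). Of 4 genes of the SOC1 and SVP classes, which time flowering and shape the inflorescence, 4 were tested, 1 was higher and none was lower, with 3 of 4 differences below 0 (median -1.03). Of the 4 B class genes, which specify petals and stamens, 2 were tested and none was called, with both differences below 0 (median -0.34). None of the 4 C and D class genes, which specify stamens, carpels and ovules, reached the mean needed for the test, and all 4 were at 0 throughout *plt3* *plt7*. IDs were put into these lists from general knowledge of tomato genes and had no name in the tables.

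Genes of other tissues and of the meristem gave the following values beside these results. The C and D class genes summed to 0 to 1.51 TPM in *ej2* *j2* and to 0 in *plt3* *plt7*, with 3 of 4 below 1 TPM throughout *ej2* *j2*, so both genotypes held little RNA of carpel and ovule identity. The B class genes summed to 22.3 to 105 TPM and 18.6 to 96.9 TPM. Nearly all of this was 1 gene, Solyc02g084630.3, at 22.3 to 105 TPM in *ej2* *j2* and 18.1 to 96.0 TPM in *plt3* *plt7*. The other 3 stayed below 1 TPM throughout *plt3* *plt7*, and in *ej2* *j2* they passed 1 TPM only in replicate 2 (Solyc08g067230.4 at 11.3 TPM, Solyc06g059970.4 at 2.22 TPM). Replicate 2 of *ej2* *j2*, where *TM5* was highest and *TM29* lowest, had the most B, C and D class genes above 0, 6 of 8. The 8 meristem genes summed to 361 to 1055 TPM in *ej2* *j2* and to 262 to 874 TPM in *plt3* *plt7*. All 8 were tested, 1 was lower, none was higher, and their median log2 difference was -1.38. Their differences ran from -2.96 to 0.85, with 6 of 8 below 0, so the sum and the median do not stand for each gene of the list. The lower gene, Solyc02g081670.1, was at 0.125 to 8.76 TPM in *ej2* *j2* and listed at 0 throughout *plt3* *plt7* (-2.16, adjusted p = 0.0242, limma). Solyc02g077390.2, named after its values were seen, was at 58.9 to 96.3 TPM and 3.11 to 51.8 TPM, with no overlap (-2.96, adjusted p = 0.0552, limma). The 3 boundary genes summed to 57.6 to 132 TPM and 19.96 to 66.5 TPM, with none called (median -0.42). Green tissue genes summed to 187 to 825 TPM and 467 to 706 TPM, with none of the 6 tested called (median -0.69), and the 1 pollen gene was at most 3.03 TPM. The part of meristem stage or tissue make-up in the lower *TM29*, *TM5* and *AGL6* was not tested.

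When each of the 8 libraries was left out in turn, *TM29*, *TM5* and *AGL6* had adjusted p of at most 0.0122, 0.0185 and 0.00154 (limma). Since *TM5* and *AGL6* were at 0 throughout *plt3* *plt7*, their differences could move only when an *ej2* *j2* library was left out. Without a filter on low values, 1 of the 5 genes was lower, *AGL6* (adjusted p = 0.0370), while *TM29* and *TM5* had adjusted p = 0.0870 and 0.154 (limma). In that fit 0.0274% of 25571 genes were lower.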

How the data were processed

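Inflorescence meristem RNA was depleted of ribosomal RNA and sequenced in 8 libraries. The authors trimmed reads with Trimmomatic, ran STAR 2.6.1 against the SL4.0 cDNA annotation and deposited TPM values, calculated in R. Strand setting and treatment of reads shared between paralogues were not stated, so levels of closely related MADS-box genes carry that uncertainty. All 8 columns were used; the study's own expression plot drew 2 of the 4 *plt3* *plt7* libraries, without naming them.

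Genes averaging 1 TPM or more were fitted as log2(TPM + 1) with limma 3.58.1 under R 4.3.3. Tests were two-sided and moderated by eBayes with a trend on level, and p-values were adjusted by Benjamini-Hochberg over all genes tested. Each gene has 6 residual degrees of freedom, combined with 365 prior ones, so standard errors come mostly from genes of similar level. The fit was tested on simulated data. Tables and figures used Python 3.11.15, pandas 2.3.3, numpy 2.4.6 and matplotlib 3.10.9.

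The 5 genes and the lists were chosen with earlier results of these data known. Named besides them were *EJ2*, *J2*, the closest gene by Pearson's r and the neighbouring rows. Gene names come with the selection by ID; RefSeq (assembly SLM_r2.1) holds an entry for 5 of 5, 5 on the chromosome of the ID, but 0 IDs of the deposited kind. Gene sequences were not used here. Alternatives were other pseudocounts, filters, scalings, library weights, a replicate block and leaving out each library.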

Additional observations from a re-analysis of the deposited data

Results flagged for a closer look

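*AGL6* in *ej2* *j2* replicate 3, at 26.2 TPM, lay far from the 10.2, 10.8 and 12.3 TPM of the other *ej2* *j2* libraries. Its gap to the nearest of these was 0.872 of the whole range of the group, above Dixon's critical value for 4 samples. The check was made on TPM and not on log2(TPM + 1). On that scale the values were 4.77 against 3.49, 3.56 and 3.73, and the gap is a smaller part of the range. The flagged group was 1 of 8 groups of 4 examined, and chance sets apart about 1 in 20 groups of normally distributed values. Without this library the log2 difference of *AGL6* was -3.59 (adjusted p = 9.30e-04, limma).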

How the results depend on the processing

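The log2 differences of *AGL6* and *LIN* kept their direction and their side of the threshold under all 16 alternatives, and those of *TM29* and *TM5* under 15 of 16. The exception was the fit without a filter on low values, where *TM29* was at -3.88 and *TM5* at -3.00 without passing (adjusted p = 0.0870 and 0.154, limma; range over the alternatives 5.16e-04 to 0.0870 and 6.40e-04 to 0.154), 1 of the 5 genes was lower and 11 genes differed in all; limma estimated 5.84 prior degrees of freedom there in place of 365. The number of genes that differ, 359, was 229 when only genes averaging 5 TPM or more were tested, which left out *RIN*, and 138 to 446 when libraries were left out (leaving out *ej2* *j2* replicate 1, 3 or 4 gave 181, 161 or 220, and leaving out *plt3* *plt7* replicate 1 or 4 gave 153 or 138). It was 303 with the replicate number as a block, where 3 of the 5 genes were lower, and the block changed the call of none of the 5 genes. Over all tested genes, libraries with the same number did not deviate together (correlations -0.03 to 0.01). This does not settle whether the numbers pair them, since a shared step could touch only some genes. The log2 difference of *RIN*, which never passed, changed sign without *plt3* *plt7* replicate 2 (0.025; range over libraries left out -0.49 to 0.025). A pseudocount of 0.1 gave -7.11 for *AGL6*, -5.95 for *TM5* and -4.91 for *TM29*, since the size of a difference from a gene at or near 0 is set by the pseudocount. The median log2 difference of all genes stayed between -0.02 and 0.08 under every alternative. The count of lower genes among the 5 was recomputed under these alternatives after the data were seen. Depth is unknown for TPM, so how far below 1 TPM *AGL6* and *TM5* lay in *plt3* *plt7* cannot be said.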
